A study of Mus musculus with 13 samples.

Results

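The genes described here are 7 listed members of the MS4A family that are not the B cell gene Ms4a1 or the mast cell gene Ms4a2, namely Ms4a7, Ms4a6b, Ms4a6c, Ms4a6d, Ms4a4a, Ms4a4b and Ms4a4c. They were chosen by symbol from 22609 genes, with the differences between KO and WT fat already known, so every fat difference of a member is a description with no test. Of the 7, 6 have a row in both tables. Ms4a4a was looked for under its symbol and its older name, matched no row and is not analysed here. RNA came from 2 tissues of C57BL/6 mice: visceral fat after a high-fat diet (HFD), with 4 libraries labelled KO and 3 WT, and transplanted tumours of E0771, a mammary carcinoma cell line of the mouse, of which 3 grew in KO and 3 in WT hosts. KO stands for hosts labelled as lacking PD-L1, the ligand encoded by Cd274, specifically in fat. The labels name neither the promoter that drives the deletion nor the age of the mice, and for the tumours they give no diet. Whether libraries of a group are separate animals is not stated, so p-values measure a spread between libraries that may be technical.

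MS4A proteins cross the cell membrane several times, and many of them associate with receptors and modulate their signals. The best known are CD20 of B cells, encoded by Ms4a1, and the beta chain of the mast cell receptor for immunoglobulin E, encoded by Ms4a2. Many of the remaining family genes are used by macrophages, monocytes and T cells. Fat of obese mice holds many macrophages, which take up lipid from fat cells.

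The fat libraries held 29362788 to 41534662 gene reads and the tumour libraries 22834259 to 34706555. Cd274 itself averaged 543.9 ± 17.6 (SD, n = 4) in KO fat and 590.2 ± 129 (SD, n = 3) in WT fat, a log2 difference of -0.10 (SE 0.15, adjusted p of limma 0.66). In the tumours it averaged 2038 ± 424 in KO and 1587 ± 169 in WT hosts (SD, n = 3 each, adjusted p of edgeR 0.717). The whole-tissue level of the targeted gene thus does not check the KO label, which is taken from the submitters. The 7 listed adipocyte markers all fell in KO fat by limma, and their summed value was 127500 to 203600 in KO and 471700 to 525600 in WT libraries. In the tumours the same sum was 332.3 to 341.7 in KO and 268.1 to 297.2 in WT hosts, while 4 epithelial genes (Krt8, Krt18, Epcam and Krt5) summed to between 8770 and 9623 in the KO tumours and between 8658 and 10450 in the WT tumours. These are bulk tissues, in which fewer cells of a type and less RNA per cell cannot be told apart.

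The members lie in 1 cluster on chromosome 19, from Ms4a7 at 11321039 to 11336146 on the minus strand through Ms4a4a, Ms4a4c, Ms4a4b, Ms4a6c and Ms4a6b on the plus strand to Ms4a6d at 11586604 to 11604849 on the minus strand (GENCODE M21, GRCm38). They span 284 kb, where Gm8369 lies between Ms4a6c and Ms4a6b and Ms4a4d between Ms4a6b and Ms4a6d. Chromosome 19 holds 19 genes with an Ms4a symbol, and 17.8 Mb separate Ms4a6d, the last of the listed members, from Cd274 on the same chromosome. The first bases upstream of 4 members are shown because 2 pairs share a longer stretch there than the other pairs do, while the values below put the members of 1 pair together and those of the other apart. Each run is the 250 bases before the gene's start (RefSeq, GRCm38.p6, plus strand), with the longest stretch that both members of a pair share in capitals. Ms4a6b lies at chr19:11518309-11518558, Ms4a6c at chr19:11469118-11469367, Ms4a4b at chr19:11443308-11443557 and Ms4a4c at chr19:11407411-11407660.
Ms4a6b: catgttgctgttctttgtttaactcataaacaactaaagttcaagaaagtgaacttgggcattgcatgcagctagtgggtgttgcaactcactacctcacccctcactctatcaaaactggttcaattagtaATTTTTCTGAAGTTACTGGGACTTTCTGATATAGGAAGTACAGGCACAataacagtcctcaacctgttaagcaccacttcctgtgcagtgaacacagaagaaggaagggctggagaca
Ms4a6c: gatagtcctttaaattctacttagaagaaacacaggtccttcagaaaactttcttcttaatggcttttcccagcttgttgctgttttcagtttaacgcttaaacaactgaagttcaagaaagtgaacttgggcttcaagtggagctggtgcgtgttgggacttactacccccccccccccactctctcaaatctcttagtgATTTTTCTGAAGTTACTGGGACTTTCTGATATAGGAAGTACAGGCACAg
Ms4a4b: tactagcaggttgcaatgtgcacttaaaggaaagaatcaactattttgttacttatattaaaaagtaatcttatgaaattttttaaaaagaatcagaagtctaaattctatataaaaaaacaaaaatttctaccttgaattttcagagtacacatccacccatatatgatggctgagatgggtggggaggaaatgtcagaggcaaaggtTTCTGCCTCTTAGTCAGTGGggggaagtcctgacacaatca
Ms4a4c: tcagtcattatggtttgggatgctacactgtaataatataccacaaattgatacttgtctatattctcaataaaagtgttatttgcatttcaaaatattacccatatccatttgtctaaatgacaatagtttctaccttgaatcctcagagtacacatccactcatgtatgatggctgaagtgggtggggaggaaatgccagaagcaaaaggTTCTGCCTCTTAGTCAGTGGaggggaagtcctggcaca
Ms4a6b and Ms4a6c shared 48 bases without a difference, starting 118 bases before the start of Ms4a6b and 49 bases before that of Ms4a6c. Over the whole window 45.8% of their aligned columns were identical (149 of 325), within the range of the other pairs. The shared stretch lies at unlike distances from the 2 starts, so the alignment of 250 bases holds many gap columns that lower this share. It therefore does not measure how alike the bases outside the stretch are. Ms4a4b and Ms4a4c shared 20 bases, and 68.8% of their aligned columns were identical. The 13 other pairs among the 6 members in the promoter table, which holds Ms4a4a but not Ms4a6d, shared stretches of 7 to 9 bases, with 41.9% to 49.6% of columns identical. The letters GAGGAA, a form of the site bound by PU.1, a master factor of myeloid cells, were searched on both strands. They were found upstream of Ms4a4b and Ms4a4c, on the forward strand, and of none of the 4 others in the table, against 23.3% of 32851 promoters of the same length. Other forms of the site were not searched, so a lack of these letters does not show a lack of the site. Neither the core of the interferon-stimulated response element, found in 2.98% of promoters, nor TTGCNNAA, a form of the C/EBP site found in 9.56%, had a match in these windows.

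How reads are assigned depends on how distinct the transcripts are. Of all 50-base words in the annotated transcripts of a member, 0.306% for Ms4a7, 2.54% for Ms4a6d, 3.57% for Ms4a6b and 2.4% for Ms4a4b also occurred in a transcript of another gene on either strand. For Ms4a4c it was 8.19%, mostly words of Ms4a4b. For Ms4a6c it was 51.4%, nearly all in the gene BE692007, so the count of Ms4a6c may hold reads of that gene. The strand of the shared words was not recorded. The library kit keeps strand, but the strand setting of the counting is not stated.

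In visceral fat, the members Ms4a7, Ms4a6d, Ms4a6c and Ms4a6b were higher in every KO library than in any WT library, by 2.38-fold to 8.43-fold. For the T cell member Ms4a4b and its relative Ms4a4c the KO and WT values overlapped. These folds were the basis of the choice of members and carry no test. Fat values are read counts scaled by a library's size factor, and log2 differences are of log2(value + 1), which understates the change of low genes.

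Ms4a7 encodes a family member found on mature macrophages. Its normalised value was 6359, 6075, 3685 and 4900 in KO libraries 1 to 4, and 1343, 478.4 and 350.6 in the WT columns numbered 1, 3 and 4. Even the lowest KO library was above the highest WT library. The means were 5255 ± 1220 in KO and 723.9 ± 540 in WT fat (SD, n = 4 and 3), a log2 difference of 3.08 (SE 0.42) and the largest among the 6 members.

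Ms4a6d, whose product was described in mouse macrophages together with the complement receptor Vsig4, showed the widest spread among KO libraries. Its value was 4481, 7296, 2480 and 3421 in KO fat and 1371, 792.4 and 357.8 in WT fat. KO library 2 was 2.94 times KO library 3, yet the groups did not overlap. The log2 difference was 2.48 (SE 0.48).

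Ms4a6c and Ms4a6b, myeloid genes of the same subgroup, differed less. Ms4a6c had 2759, 3553, 2224 and 2943 in KO fat and 1365, 1104 and 456.8 in WT fat, a log2 difference of 1.68 (SE 0.35). Ms4a6b had 1800, 2013, 1373 and 1607 in KO fat and 819.8, 844.2 and 510.4 in WT fat, a log2 difference of 1.25 (SE 0.21). In each of these 4 genes the WT column numbered 4 was the lowest library of all 7. Without that column the log2 difference was 2.68 for Ms4a7, 1.97 for Ms4a6d, 1.20 for Ms4a6c and 1.01 for Ms4a6b.

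Ms4a4b encodes a T cell protein reported to associate with the costimulatory receptor GITR. It had 299.1, 182.3, 276.9 and 166.3 in KO fat and 157.4, 237.7 and 163.9 in WT fat, a log2 difference of 0.29 (SE 0.26). KO libraries 1 and 3 were above all WT libraries, and the other two lay inside the WT range. Ms4a4c had 115.9, 146.7, 71.73 and 70.54 in KO fat and 197.9, 140.9 and 44.34 in WT fat, a log2 difference of -0.16 (SE 0.50) with a 95% interval of the fold from 0.403 to 1.99. Its highest and its lowest library were both WT, and the sign turned to 0.28 without the WT column numbered 1 and to 0.04 without the one numbered 3.

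Of the 6 members tested in fat, 4 passed limma on the higher side and none on the lower, where 16.8% and 17.4% of the 14455 genes tested were called. The KO and WT values of the same 4 did not overlap, against 21.6% of genes with all KO values higher and 22.1% with all KO values lower. The median log2 difference of the 6 members was 1.46, beside 0.00 over all genes tested. Since this contrast chose the members, nothing is read from these counts.

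**Figure D1:**
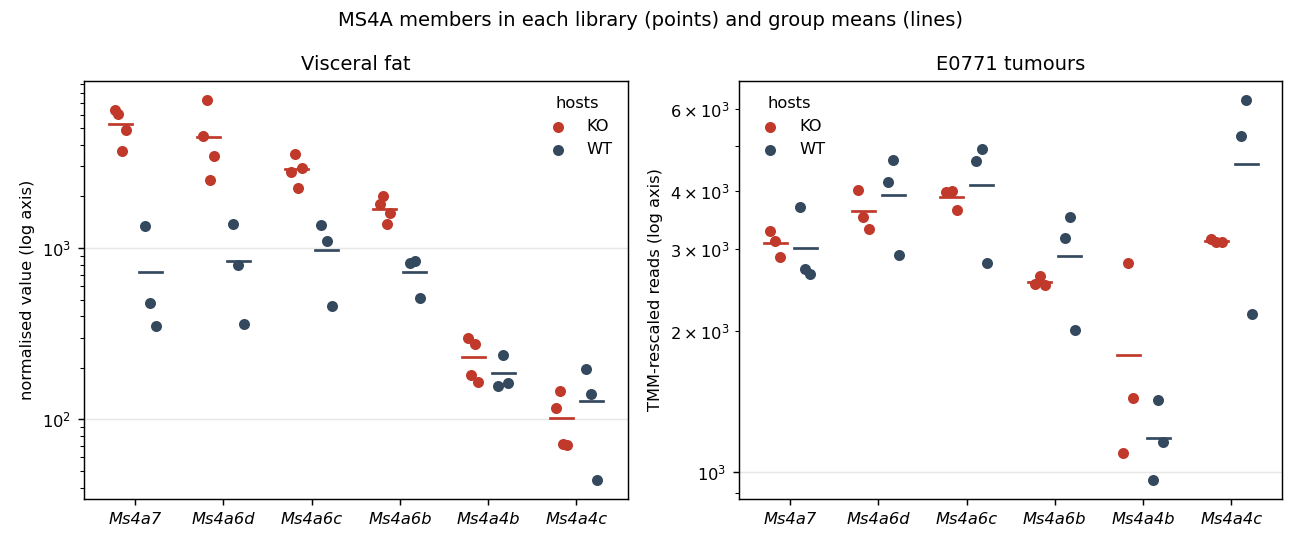
Level of each member in every library, on log axes, as normalised value in visceral fat (left) and TMM-rescaled reads in E0771 tumours (right). Points are libraries, KO left of WT, and lines are group means. In fat the KO points of Ms4a7, Ms4a6d, Ms4a6c and Ms4a6b all lie above the WT points, while in the tumours the groups overlap for all 6 members.

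Macrophage markers moved in the same direction in fat. Of 12 core macrophage genes tested, among them Emr1 (F4/80), Csf1r, Cd68 and the C1q genes, 11 rose and none fell by limma, with a median log2 difference of 1.87. Their summed value was 293700 to 403100 in KO and 56070 to 157300 in WT fat, and none was at 0. Of 9 resident macrophage markers 3 rose (Mrc1, Folr2 and Vsig4) and 5 fell (Lyve1, Timd4, F13a1, Cd209f and Cbr2). None of 7 monocyte genes passed, and of 10 T cell genes 2 rose (Cd8a and Cd8b1) and none fell, with sums of 2359 to 3079 in KO and 1607 to 3261 in WT fat. Thy1 alone made up most of these sums, at 1529 to 1804 in KO and 971.3 to 2233 in WT fat. Of 7 mast cell genes 5 rose, with sums of 4231 to 16230 in KO and 1093 to 3455 in WT fat. All 4 endothelial genes fell, with sums of 14700 to 25610 in KO and 32880 to 46020 in WT fat. Of 6 dendritic cell genes 3 fell (Zbtb46, Itgae and Cd209a), with sums of 786.5 to 979.1 in KO and 1286 to 1630 in WT fat. The part of these cell types in the members' values was not tested.

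Set against the core macrophage list within each library, the members parted from each other. The difference of log2(value + 1) between Ms4a7 and the mean of the list was -1.72 ± 0.24 in KO fat and -2.87 ± 0.36 in WT fat (SD, n = 4 and 3), and the groups did not overlap. Ms4a7 was thus higher relative to the mean of this list in KO fat, but not relative to each gene in it. The log2 differences of the listed genes ran from 0.61 for Mertk to 2.89 for Cd68, beside 3.08 for Ms4a7. The share of all genes that part from the list in this way was not computed, and the members were chosen with the fat differences known. Ms4a6c stood at -2.58 ± 0.16 in KO and -2.33 ± 0.31 in WT, and Ms4a6d stood at -2.05 ± 0.53 in KO and -2.61 ± 0.27 in WT, both with overlapping groups. Ms4a6b was lower against the list in KO fat, at -3.33 ± 0.10 against -2.65 ± 0.46 in WT. Its groups were barely apart, with the highest KO library at -3.21 and the lowest WT library at -3.18. Ms4a4c was the lowest of all against the list, at -7.44 ± 0.41 in KO and -5.36 ± 0.49 in WT, again without overlap. Against the mean of the T cell list, Ms4a4b stood at 0.76 ± 0.16 in KO and 0.85 ± 0.16 in WT fat.

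**Figure D2:**
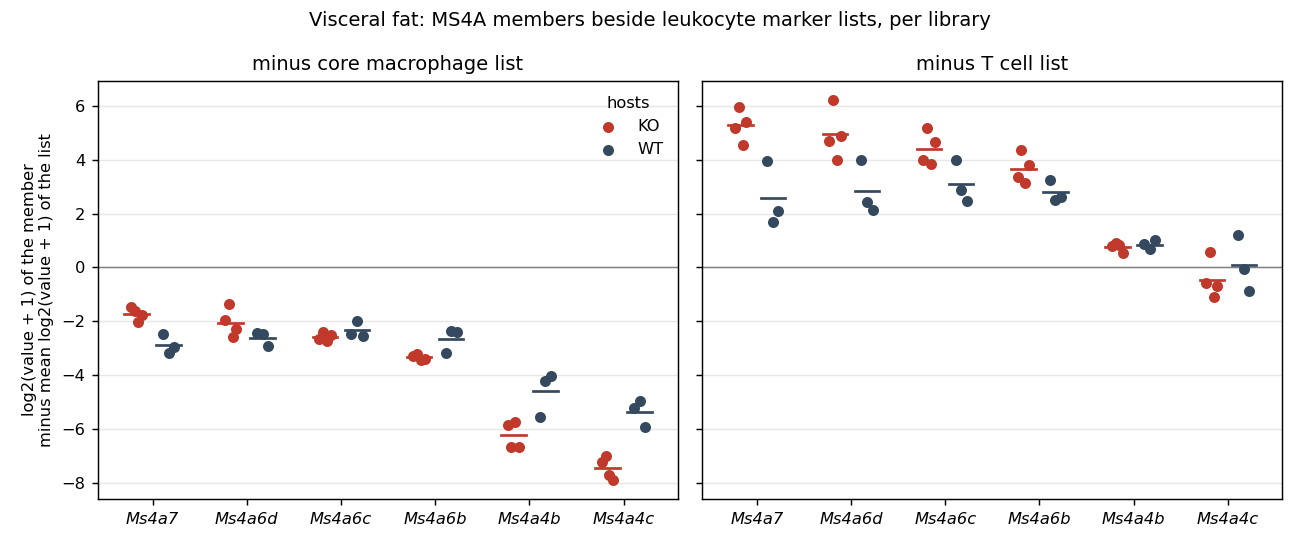
Visceral fat, log2(value + 1) of each member minus the mean log2(value + 1) of the core macrophage list (left) or the T cell list (right), 1 point per library with group means as lines, KO left of WT. Relative to the mean of the macrophage list Ms4a7 was higher, Ms4a6b, Ms4a4b and Ms4a4c were lower and Ms4a6c and Ms4a6d overlapped. The KO and WT values of Ms4a4b overlap against the T cell list.

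Ratios of members within a library need no marker list. Of the 15 ratios in fat, 10 did not overlap between KO and WT and 5 did, and all 15 overlapped in the tumours. The share of such ratios among other gene pairs was not computed, and the members were chosen with the fat differences known. Nothing is therefore read from the count in fat. The ratio of Ms4a7 to Ms4a6c was 1.66 to 2.31 in KO fat and 0.433 to 0.984 in WT fat. The ratio of Ms4a7 to Ms4a6d overlapped, at 0.833 to 1.49 in KO fat and 0.604 to 0.98 in WT fat, as did that of Ms4a6b to Ms4a6c, at 0.546 to 0.653 in KO fat and 0.601 to 1.12 in WT fat. The ratio of Ms4a6d to Ms4a4c was 34.6 to 49.7 in KO fat and 5.62 to 8.07 in WT fat. These ratios do not depend on the size factor of a library.

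Per kb of exon (GENCODE M21, which may differ from the authors' annotation), the mean level in KO fat was 2550 for Ms4a6d, 1400 for Ms4a6c, 1180 for Ms4a7, 379 for Ms4a6b, 57.8 for Ms4a4c and 26.3 for Ms4a4b. The libraries of Ms4a6d and Ms4a6c overlapped, as did those of Ms4a6c and Ms4a7, and every later step down was free of overlap. In WT fat the order by mean level per kb was Ms4a6d at 484, Ms4a6c at 476, Ms4a7 at 163, Ms4a6b at 162, Ms4a4c at 72.9 and Ms4a4b at 21.2. There, each gene overlapped its neighbours in the order except that Ms4a6b at 114 to 188 was just above Ms4a4c at 25.3 to 113. Exon length here counts every base in an exon of any annotated transcript, from 1735 for Ms4a6d to 8780 for Ms4a4b. The order depends on this divisor. Undivided, the mean in KO fat was highest for Ms4a7, at 5255, and Ms4a4b at 231.2 was above Ms4a4c at 101.2.

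In the tumours none of the 6 members passed the test between hosts. By edgeR, 0 of 6 members and 0% of 13109 genes were called in either direction, while at an unadjusted p under 0.05 497 genes (3.79%) were higher and 408 (3.11%) lower, none of them a member. DESeq2 called 47 genes higher and 12 lower, none of them a member. The groups overlapped in all 6, where 5.29% of genes had all KO values higher and 5.2% all KO values lower. The smallest exact permutation p that 3 libraries against 3 allow is 0.1.

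Ms4a7 had 3285, 3124 and 2887 TMM-rescaled reads in tumours of KO hosts and 3696, 2721 and 2651 in tumours of WT hosts. The log2 difference was 0.04 (SE 0.15, adjusted p of edgeR 0.963), with a 95% interval of the fold from 0.826 to 1.28. Ms4a6d averaged 3622 ± 364 in KO and 3917 ± 904 in WT hosts, Ms4a6c 3877 ± 204 and 4119 ± 1140, and Ms4a6b 2557 ± 68.2 and 2902 ± 786 (SD, n = 3 each). Their log2 differences were -0.11, -0.08 and -0.18, and the 95% intervals of the 3 folds together ran from 0.673 to 1.25.

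Ms4a4c was the member with the lowest fold in the tumours. It had 3159, 3111 and 3113 TMM-rescaled reads in KO hosts and 5237, 6270 and 2179 in WT hosts. The KO tumours lay within a factor of 1.02 of each other, between WT tumour 3 and the other two. The log2 difference was -0.54 (SE 0.28, adjusted p of edgeR 0.757, two-sided exact permutation p 0.4). Without WT tumour 3 the log2 difference was -0.88 with an adjusted p of 0.035, so this library alone decides the call. In the same tumour the summed value of 8 interferon-stimulated genes was 21080, against 40070 and 45150 in the other WT tumours and 21140 to 31830 in KO hosts. The summed value of 7 monocyte genes was likewise 11010 in WT tumour 3, against 19870 and 23710 in the other WT tumours and 10680 to 12790 in KO hosts. The part of interferon or of monocytes in the values of Ms4a4c was not tested.

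Ms4a4b was the member with the highest fold in the tumours. It had 1097, 2808 and 1437 TMM-rescaled reads in KO hosts and 959.9, 1424 and 1160 in WT hosts, a log2 difference of 0.60 (SE 0.29, adjusted p of edgeR 0.742, exact permutation p 0.4). The second KO tumour stood above all others, and without it the log2 difference was 0.10. The same tumour had the largest sum of the 10 T cell genes, 15510, against 7821 and 9055 in the other KO tumours and 6024 to 8146 in WT hosts. Against the T cell list Ms4a4b stood at 0.82 ± 0.19 in KO and 0.93 ± 0.37 in WT hosts (log2, SD, n = 3 each).

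Per kb of exon, Ms4a6d, Ms4a6c and Ms4a4c led in the tumours, with mean levels of 2090, 1890 and 1790 in KO hosts and 2260, 2010 and 2610 in WT hosts. Ms4a7 at 696 in KO and 679 in WT and Ms4a6b at 570 in KO and 647 in WT followed, and Ms4a4b was lowest at 203 in KO and 135 in WT. Ms4a4c was thus among the highest 3 members in the tumours and among the lowest 2 in fat. The tables were normalised separately, so only the order within a tissue is given.

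**Figure D3:**
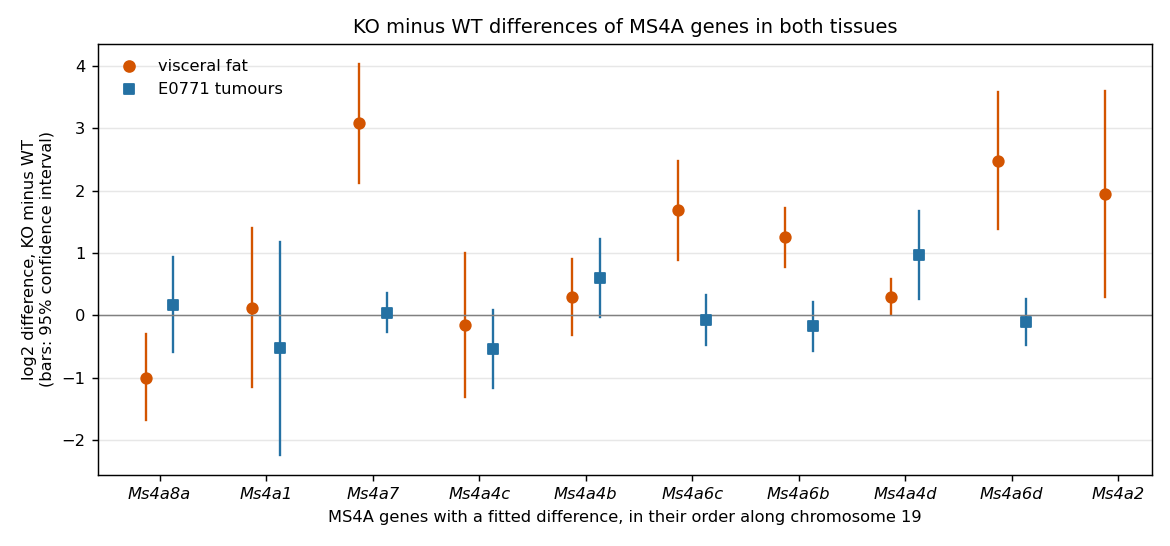
Log2 difference, KO minus WT, with 95% confidence interval, for the Ms4a genes that passed the filter on low values, in their order along chromosome 19, in visceral fat (circles) and E0771 tumours (squares). In fat Ms4a7, Ms4a6c, Ms4a6b and Ms4a6d lie at 1.25 or above, with Ms4a4c, Ms4a4b and Ms4a4d between them near 0. In the tumours all 6 members lie between -0.54 and 0.60.

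How the members vary inside a group is a measure that the choice of members did not use. With the mean of each of the 4 groups taken out of log2(value + 1), Ms4a6b, Ms4a6c, Ms4a6d and Ms4a4c varied together over the 13 libraries. Their 6 pairs had Pearson correlations of 0.84 to 0.95, of 0.91 to 0.95 over the 7 fat libraries and of 0.92 to 1.00 over the 6 tumours. The KO tumours varied little, at -0.008 to 0.015 for Ms4a4c and -0.026 to 0.044 for Ms4a6b, while WT tumour 3 stood at -0.93 and -0.485. The tumour correlations thus rest largely on the WT tumours. The closest pair was Ms4a6b and Ms4a4c (r = 0.95, Spearman rho = 0.93), although in fat the first was higher in KO libraries and the other was not. Ms4a7 was closest to Ms4a6d (r = 0.83, rho = 0.75), a relation of 0.87 in fat and 0.44 in the tumours. Ms4a4b stood apart, with correlations of -0.21 to 0.10 with the other 5, and of 0.07 with Ms4a4c, whose upstream bases shown above are most like its own. Without the 2 libraries farthest out the 6 pairs ran from 0.80 to 0.89 and those of Ms4a4b from -0.30 to 0.04. All points of a pair share their library, and with it depth and cell makeup, so these correlations are descriptions.

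**Figure D4:**
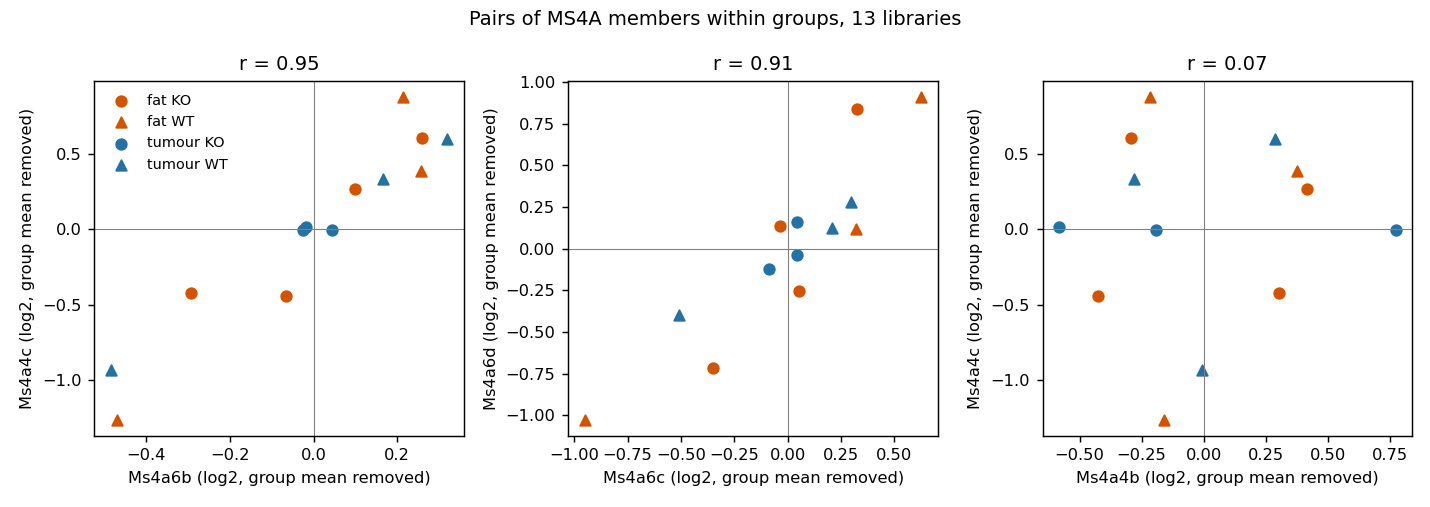
Log2 values of 3 pairs of members with the mean of each group taken out, 1 point per library (circles KO, triangles WT, orange fat, blue tumour). Ms4a6b with Ms4a4c (r = 0.95) and Ms4a6c with Ms4a6d (r = 0.91) lie along a line, and Ms4a4b with Ms4a4c (r = 0.07) does not.

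The same values were set beside the marker lists. Ms4a4b was closest to the T cell list over all 13 libraries (r = 0.86, and 0.92 in fat), followed by the B cell list (r = 0.79, and 0.70 in fat). In the tumours the order turned, with r = 0.95 for the B cell list, 0.84 for the NK cell list and 0.83 for the T cell list, and without the 2 libraries farthest out the B cell list (r = 0.81) was also above the T cell list (r = 0.78). Ms4a7 was closest to the core macrophage list, with r = 0.90 over all libraries and 0.94 in fat but 0.41 in the tumours, and it came to 0.57 without the 2 libraries farthest out, so it rests largely on those. Ms4a6d was also closest to that list by Pearson r (0.80). By Spearman rho the interferon-stimulated list (0.75) and the monocyte list (0.73) came before it (0.65). Ms4a4c, Ms4a6b and Ms4a6c were closest to the monocyte list (r = 0.91, 0.86 and 0.84). For Ms4a6c the core macrophage list was closest within fat (r = 0.92, against 0.83 for the monocyte list). Without the 2 libraries farthest out its closest was the interferon-stimulated list (r = 0.74, against 0.65). Within fat, Ms4a4c had r = 0.92 with the monocyte list and 0.93 with the resident macrophage list, and Ms4a6b had r = 0.80 and 0.91 with these lists. In the tumours Ms4a4c had r = 0.93 and Ms4a6b 0.96 with the monocyte list, values that rest largely on the WT tumours. In the tumours Ms4a6d had r = 0.99 with the interferon-stimulated list and 0.03 with the core macrophage list. It varied there from -0.401 to 0.277 among WT and from -0.12 to 0.158 among KO tumours. In fat the same gene had r = 0.58 and 0.88.

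Among 10050 genes with a mean of 100 or more in both tissues, those most like Ms4a7 inside the groups were Tmem206, Dpep2, Gm5150, Ctsz and Abhd12, with r from 0.981 to 0.977. Ms4a6d was most like Postn, Ccl9 and Plin2 (r = 0.967, 0.961 and 0.954), of which Ccl9 is a myeloid chemokine and Plin2 a coat protein of lipid droplets. Ms4a6c was most like Rgs14, BC055324 and Il13ra1 (r = 0.954 to 0.921). Sap30 was the gene most like both Ms4a6b (r = 0.941) and Ms4a4c (r = 0.964). It was followed by Acss1 and Chid1 for Ms4a6b (r = 0.916 and 0.909) and by Dck and Slc30a6 for Ms4a4c (r = 0.941 and 0.939). Ms4a4b was most like Fam65b, Cd24a and Thap1 (r = 0.927 to 0.902). With 4 group means taken out of 13 libraries, high values arise easily among so many genes.

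The rest of the family was listed by symbol, 9 other Ms4a genes plus the relatives Tmem176a and Tmem176b. In fat 6 of these 11 passed the filter, of which 1 fell and none rose. Ms4a8a averaged 143.8 ± 43.2 in KO and 288.9 ± 100 in WT fat (SD, n = 4 and 3), with no overlap, a fold of 0.501 (95% interval 0.311 to 0.808, adjusted p of limma 0.0337). That call ended without KO library 3 or 4 or without the WT column numbered 1 or 3, with an adjusted p up to 0.133, and the log2 difference then ran from -1.05 to -0.73. Ms4a4d lies between Ms4a6b and Ms4a6d and had a log2 difference of 0.29 (SE 0.13, adjusted p 0.102) in fat, with 1331 ± 166 in KO and 1079 ± 41.8 in WT. In the tumours no other family gene was called, and the smallest p were those of Ms4a4d, at a log2 difference of 0.97 (SE 0.32, adjusted p 0.627), and Tmem176b, at -0.15 (SE 0.16, adjusted p 0.881).

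The B cell gene Ms4a1 averaged 123.6 ± 64.8 in KO and 124.3 ± 101 in WT fat. The mast cell gene Ms4a2 averaged 22.64 ± 11.8 in KO and 6.368 ± 5.77 in WT fat, a log2 difference of 1.94 (SE 0.72, adjusted p of limma 0.0685). Per kb of exon the lowest level of Ms4a1 was 8.89 in KO and 9.73 in WT fat and its highest 34 in KO and 38.9 in WT fat. The mean level of Ms4a2 was 8.05 in KO and 2.26 in WT fat. Both genes lay below the means of Ms4a7, Ms4a6d, Ms4a6c and Ms4a6b. In the tumours Ms4a2 had 9, 10 and 11 reads in KO hosts and 2, 0 and 0 in WT hosts, under the filter on low counts. The summed value of the 7 mast cell genes there was 2648 to 8871 in KO and 743.7 to 1651 in WT hosts, with none of them called.

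Genes whose products are reported to act with MS4A proteins, or belong to receptors with an MS4A chain, were listed too, and 6 of 7 were found by symbol. In fat 5 rose by limma and none fell, where 16.8% of the 14455 genes tested rose and 17.4% fell. The list was chosen with earlier results of these data known, and 11 of 12 core macrophage genes rose in the same contrast. Nothing is therefore read from this count. Clec7a, the beta-glucan receptor Dectin-1 that human MS4A4A associates with, averaged 6999 ± 1120 in KO and 1617 ± 1150 in WT fat, a log2 difference of 2.34 (SE 0.39, adjusted p 0.0033). Vsig4 averaged 309.2 ± 116 in KO and 73.9 ± 8.94 in WT fat, a log2 difference of 1.98 (SE 0.29, adjusted p 0.0021). Trem2, whose soluble form in human cerebrospinal fluid is tied to variation at the MS4A genes, had a log2 difference of 3.55 (SE 0.52), Cd9 of 2.10 (SE 0.21) and Fcer1g, the shared signalling chain of Fc receptors, of 2.09 (SE 0.38), with adjusted p of 0.00211, 0.000939 and 0.00443. Tnfrsf18, which encodes GITR, averaged 35.41 ± 17.1 in KO and 42.06 ± 17.2 in WT fat (adjusted p 0.678). In the tumours Vsig4 had 0, 0 and 0 reads in KO and 1, 2 and 0 in WT hosts, below the filter. None of the 5 partner genes tested there was called, and the smallest p were those of Trem2, at a log2 difference of 0.53 (SE 0.19, adjusted p of edgeR 0.652, all 3 KO values higher), and Cd9, at -0.20 (SE 0.13, adjusted p 0.815).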

How the data were processed

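For the tumours the authors deposited a raw read count per gene symbol, and 5 lines that name no gene (66.7% to 72.2% of entries) were left out. The fat table deposited by the authors holds a normalised signal: each column is a column of whole reads scaled by its own size factor, since 100% of 117220 values above 0 are whole multiples of a column's smallest value within 0.001. CASAVA, TopHat, DESeq2 and mm10 are named per the submitters' processing notes, and the counting tool, annotation and strand setting are not given in the sources used here. WT fat columns numbered 1, 3 and 4 carry numbers unlike the labels' 1, 2 and 3 and were assigned to the group only.

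In R 4.3.3, edgeR 4.0.16 gave the tumour tests (quasi-likelihood, TMM, filterByExpr). Fat was tested on log2(value + 1) by limma 3.58.1 with a variance trend, over genes that reached 10 in at least 3 libraries. Tests were two-sided over all genes, Benjamini-Hochberg adjusted, with a threshold of 0.05, and the difference is KO minus WT. The pipelines were tested on simulated data. Libraries of a group differed beyond sampling noise (chi-square per degree of freedom 24.2 to 235). The members and lists were chosen with earlier results of these data known. Named are all members, of the lists of other family and partner genes those called in fat and the 2 of smallest p in the tumours, and the 5 or 3 genes most like a member. Marker lists are given by counts and sums, with some of their genes as examples. They were chosen by textbook knowledge. Intervals cover the spread between libraries. Alternatives were another pseudocount, filter, scaling and tool, a replicate block, and leaving out each library.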

Additional observations from a re-analysis of the deposited data

How the results depend on the processing

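The 4 fat members were called under each of the 12 alternatives (DESeq2 1.42.0 and edgeR on recovered reads included), with log2 differences of 2.68 to 3.65 for Ms4a7 and 1.01 to 1.38 for Ms4a6b. Ms4a4c in fat turned to 0.28 and 0.04 without the WT column numbered 1 or 3, in a range of -0.79 to 0.28 when 1 library was left out. Over all fat genes edgeR on recovered reads called 2356 higher and 2542 lower. Leaving out 1 library gave 1575 to 2691 higher and 1490 to 2567 lower, both lowest without the WT column numbered 3. In the tumours DESeq2 called 47 higher and 12 lower and edgeR with no filter 21 and 1. Leaving out 1 tumour gave 0 to 10 higher, 0 to 11 lower and 0 to 1 members, the 1 being Ms4a4c. The sign of 3 tumour members turned without 1 tumour, within ranges of -0.05 to 0.21 for Ms4a7, -0.30 to 0.07 for Ms4a6c and -0.28 to 0.04 for Ms4a6d. Ms4a7 stood at -0.01 without KO 1, -0.03 without WT 2 and -0.05 without WT 3, Ms4a6c at 0.01 without WT 1 and 0.07 without WT 2, and Ms4a6d at 0.04 without WT 2. With the replicate block edgeR called 0 genes higher, 0 lower and 0 members. Same-numbered tumours did not deviate together (r = -0.32, 0.03 and -0.19), beside -0.24 to 0.38 for tumours of unlike number. With 3 tumours in each group these values cannot exclude a pairing by number. No paired analysis was possible in fat because the WT columns carry other numbers than the labels. Except for the turns of sign given here, every other alternative left the direction of each member as reported. Groups of 3 or 4 libraries limit the precision, and depth is lowest for Ms4a4c in fat, at 43 to 230 reads a library.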
